A study of Mus musculus with 3 samples.

Results

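The genes described here are 4 ligands and 6 receptors of the tumour necrosis factor (TNF) superfamily, measured in cultured mouse macrophages before stimulation. The ligands are Tnf, Tnfsf12, Tnfsf13b and Tnfsf14, and the receptors are Tnfrsf1a, Tnfrsf1b, Fas, Tnfrsf11a, Ltbr and Tnfrsf14. They were taken by symbol, and all 10 were found among the 55536 genes of the gene tables and in both transcript tables of each library. The cells were macrophages that had been grown out of C57BL/6J marrow, and their polyadenylated RNA was sequenced. By the labels the agent was lipid A, the part of lipopolysaccharide that Toll-like receptor 4 recognises, at 100 ng/ml and a time of 0 minutes, so what was read is the state just before the agent acts. The 3 libraries, biological replicates 1, 2 and 3, form 1 group and have nothing to be compared with. The libraries have separate biosamples and the same donor record, and no label says whether separate animals were used, so the spread between them may be partly technical. Sex and age were not collected.

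Ligands of this superfamily are mostly made as trimers in the cell membrane, and some are cut loose to act at a distance. Their receptors gather adaptor proteins of the TRAF family, which leads to NF-kB and MAP kinase signalling. Receptors with a death domain can also start caspase-8 or RIPK3 and MLKL killing. In macrophages TNF is a main early product of Toll-like receptor signalling, and Tnfrsf11a (RANK) is the receptor through which the same precursors become osteoclasts.

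Depth ran to 27946070, 29779410 and 53447437 expected counts for replicates 1, 2 and 3. Where a gene had 0 counts, up to 3 remain possible, which is 0.107, 0.101 and 0.0561 CPM (counts scaled to a common total) by counting error alone. The macrophage label held: 10 of 10 macrophage markers reached 1 TPM (a transcript level divided by length and scaled to the same sum in each library) in every library, led by Lyz2 and Cd68, with Mertk lowest at 80.9 ± 31.4 TPM. The libraries differed in a set of 15 interferon-stimulated genes, all of which were highest in replicate 2 both in TPM and on scaled counts. The summed level of these genes was 1882, 5036 and 1250 TPM in replicates 1, 2 and 3.

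Of the 10 genes, 9 reached at least 1 TPM in every library. This held for 19.0% of all genes and for 44.8% of protein-coding genes. The median over the 10 genes of the mean level was 42.8 TPM, against 19.6 TPM over the protein-coding genes that reached 1 TPM throughout. The 10 genes were chosen with earlier results of these data known, so a high count and median can follow from that choice. The receptors for TNF led, Tnfsf12 was the most abundant ligand, and Tnfsf13b was near the limit of detection. In bulk RNA, fewer cells that express a gene and less of its RNA in each cell cannot be told apart.

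**Figure D1:**
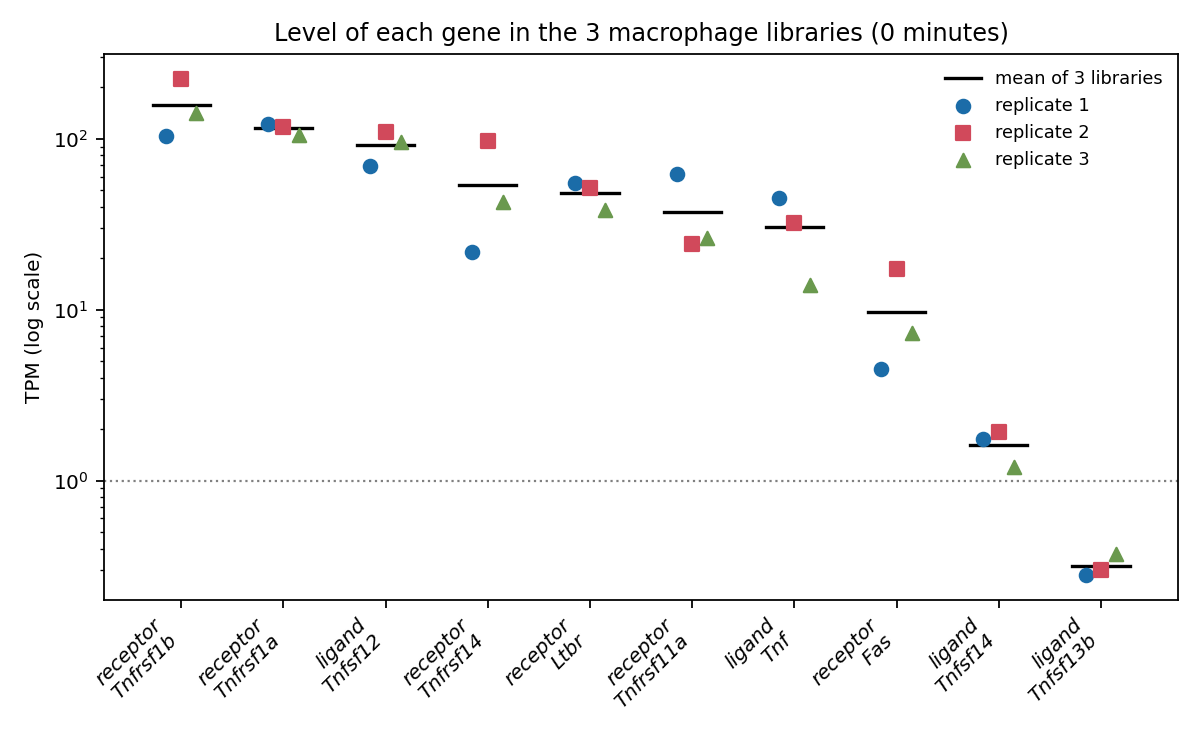
TPM (log scale) of the 10 genes in each library, ordered by mean; points are libraries, black bars are the means of 3 libraries, and the dotted line marks 1 TPM. Tnfrsf1a is tight, at 106 to 123 TPM, Tnfrsf14 runs from 21.6 to 97.1 TPM, and Tnfsf13b alone lies below the line.

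A few stretches of regulatory sequence are shown before the values. The promoter of Tnf is shown because it is the textbook example of an inducible macrophage promoter, those of Tnfrsf1b, Fas and Tnfrsf14 because these receptors had their highest level in replicate 2, and that of Tnfrsf11a because this receptor was lowest there. Windows of 250 bases before the RefSeq start site on GRCm38.p6 were searched on both strands, and 9 of the 10 genes had an entry. Capitals mark TATAAA (the TATA box), GGGCGG (the GC box), GAGGAA (the core bound by the macrophage factor PU.1) and GAAANNGAAA (a repeat of the kind found in interferon response elements), or their reverse complements. No match overlapped another. The last 150 bases are printed in the direction of the gene, except for Tnfrsf14, where 125 of those 150 bases lie in annotated exons and 30 bases around the match are shown. The fragment that leads Tnfrsf14 in TPM, Tnfrsf14-203, starts further upstream, at base -486 from the start site used, so the match lies within the span of that transcript.

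Tnf, chr17:35202008-35202157, minus strand: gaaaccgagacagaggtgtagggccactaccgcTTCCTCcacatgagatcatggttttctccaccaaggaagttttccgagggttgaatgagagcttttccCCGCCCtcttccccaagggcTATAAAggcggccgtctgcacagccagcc
Tnfrsf1b, chr4:145246871-145247020, minus strand: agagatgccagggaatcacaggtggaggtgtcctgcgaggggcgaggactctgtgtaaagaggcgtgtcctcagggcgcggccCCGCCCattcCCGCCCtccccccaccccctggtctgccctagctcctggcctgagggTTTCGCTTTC
Fas, chr19:34290509-34290658, plus strand: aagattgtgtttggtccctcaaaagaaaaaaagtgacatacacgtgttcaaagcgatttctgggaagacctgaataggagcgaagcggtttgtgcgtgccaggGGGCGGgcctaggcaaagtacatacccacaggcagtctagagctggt
Tnfrsf14, chr4:154928122-154928151, minus strand: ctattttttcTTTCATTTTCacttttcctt
Tnfrsf11a, chr1:105780573-105780722, plus strand: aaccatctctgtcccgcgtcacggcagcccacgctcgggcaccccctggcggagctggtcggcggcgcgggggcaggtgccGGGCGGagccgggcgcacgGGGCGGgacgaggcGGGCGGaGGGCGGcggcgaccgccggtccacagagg

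The interferon-type repeat was in the windows of Tnfrsf1b, at bases -10 to -1, and Tnfrsf14, at -64 to -55, and in 1 of the 2 windows of Tnfsf13b. Of all 32851 promoter windows, 2.98% held it. The window of Fas did not. The match of Tnfsf13b lies in the last 150 bases of its window, all of which are in annotated exons. Tnf had the TATA box at -29 to -24, which 12.4% of windows held, and it was the only one of these genes with it. Tnf, Tnfrsf1b, Fas, Tnfrsf11a and Ltbr had a GC box, which 32.7% of windows held, and Tnfrsf11a had 4. Its window also held 31 CpG pairs, against a median of 6 over all windows. The PU.1 core was found for Tnf, Tnfsf14, Tnfrsf1b and Ltbr, against 23.3% of windows, and the 10-base NF-kB consensus for none of the genes, against 3.9%. A match says only that the letters are there.

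Among the ligands, Tnf encodes the cytokine that gives the family its name, made as a membrane trimer and cut loose by the protease ADAM17. It had 44.9, 32.1 and 13.9 TPM in replicates 1, 2 and 3, a mean of 30.3 ± 15.6 (SD, n = 3). These values rest on 1143, 873 and 757 expected counts. Replicate 3, the most deeply sequenced library, lay lowest and apart from the others. After scaling by TMM, which sets the libraries to a common composition, replicate 1 was 2.57-fold above replicate 3, with an exact 95% interval of 2.35 to 2.82 for counting error. Such an interval compares those libraries and says nothing of a condition. It does not allow for their having been picked as highest and lowest from the same counts.

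Tnf mRNA is known to be unstable through AU-rich elements in its 3′ untranslated region, where the protein tristetraprolin (Zfp36) binds. The stretch from base 437 to base 466 after the stop codon of Tnf-201 is shown because it holds the element, with each ATTTA in capitals.

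Tnf-201, 3′ untranslated region, chromosome 17: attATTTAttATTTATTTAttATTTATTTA

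The 764-base region held 5 copies of the nonamer TTATTTATT. The leading transcripts of 8963 detected coding genes, each with a complete coding sequence, were also searched, and 6.91% held at least 1 copy. The leading transcripts of Tnfsf13b and Tnfrsf14 have no complete coding end. For these genes Tnfsf13b-203 and Tnfrsf14-205 were searched instead, a choice not made for the 8963. Among the 10 genes, Tnfsf13b-203 had 1 copy and the other 8 genes had 0. Zfp36 itself was at 52.9, 63.2 and 68.0 TPM in replicates 1, 2 and 3; it was chosen for naming after its values were seen.

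Tnfsf12 encodes TWEAK, a ligand of the receptor Fn14 (Tnfrsf12a), and was the most abundant ligand in every library. It had 69.6, 109.8 and 95.7 TPM in replicates 1, 2 and 3, a mean of 91.7 ± 20.4 (SD, n = 3), and made up 50.1%, 53.6% and 67.1% of the summed TPM of 18 superfamily ligands. Replicate 1 was the lowest library on both scales. The highest was replicate 3 on TMM-scaled counts, 1.69-fold above replicate 1 (1.59 to 1.79), and replicate 2 in TPM. Set against the other libraries, the genes tested had a median log2 ratio of 0.10, 0.12 and -0.23 in TPM in replicates 1, 2 and 3, so replicate 3 reads low on that scale.

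Tnfsf12 shares its strand and exons with Tnfsfm13, a readthrough gene that joins it to the neighbouring Tnfsf13 (APRIL, a survival factor for B cells and plasma cells). Tnfsfm13 had 19.9, 31.4 and 17.7 TPM in replicates 1, 2 and 3, and Tnfsf13 had 12.6, 36.9 and 27.1 TPM. An antisense gene, Tnfsf13os, also overlaps Tnfsf12 and was at 4.09, 12.1 and 6.28 TPM. How reads were divided among them is the estimate of the deposited tables, and whether strand was used is not given in the sources used here, so the level of Tnfsf12 is uncertain to that extent. The readthrough transcript Tnfsfm13-202 took 19.2% of its gene in replicate 3 in the RSEM-format table and 53.7% in the kallisto-format table.

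Tnfsf14 encodes LIGHT, which binds Tnfrsf14 and Ltbr. It was low but even, at 1.74, 1.92 and 1.2 TPM in replicates 1, 2 and 3 (mean 1.62 ± 0.375, SD, n = 3), on 51, 60 and 75 counts. Highest over lowest library was 1.26-fold, and the interval for counting error, 0.882 to 1.79, spans equality. Tnfsf13b encodes BAFF, which keeps B cells alive. It was at 0.28, 0.3 and 0.37 TPM on 8, 15 and 11 counts, below 1 TPM in all libraries, and it was the only one of the 10 genes to miss the filter on low counts. No spread between libraries can be read from so few counts: the fold of 2.02 has an interval of 0.922 to 5.17.

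Among the receptors, Tnfrsf1b (TNFR2), which has no death domain and prefers membrane-bound TNF, had the highest mean. It was at 104, 224 and 142 TPM in replicates 1, 2 and 3, a mean of 157 ± 61.4 (SD, n = 3). Replicate 2 was 2.11-fold above replicate 1 (2.05 to 2.17). Tnfrsf1a (TNFR1), which carries a death domain and binds TNF in both its forms, was at 123, 118 and 106 TPM, a mean of 115 ± 8.85 (SD, n = 3). It was the steadiest of the genes: its highest library was 1.06-fold above its lowest (1.02 to 1.1), a smaller range than all but 0.909% of tested genes. The ratio of Tnfrsf1b to Tnfrsf1a in TPM was 0.845, 1.9 and 1.35, so TNFR1 RNA was the more abundant in replicate 1 and TNFR2 RNA in the other libraries.

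Ltbr, the lymphotoxin beta receptor that signals to non-canonical NF-kB, was also even, at 55.0, 51.3 and 38.1 TPM (mean 48.1 ± 8.93, SD, n = 3) and 1.15-fold on TMM-scaled counts (1.08 to 1.22). Ltbr and Tnfrsf1a lie 35477 bases apart on chromosome 6, with Scnn1a, an epithelial sodium channel subunit at 1.03 ± 0.245 TPM, between them; it was named after its value was seen.

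Tnfrsf11a was at 62.1, 24.1 and 26.2 TPM in replicates 1, 2 and 3 (mean 37.4 ± 21.3, SD, n = 3). Replicate 1 lay apart from the others, 2.48-fold above replicate 2 (2.35 to 2.62). Of 10 osteoclast markers, 5 reached 1 TPM in every library, with Atp6v0d2 at 161, 120.1 and 549 TPM, Nfatc1 at 22.8 ± 4.18 TPM and Calcr, the calcitonin receptor of mature osteoclasts, at 0 counts in all libraries. Their summed level was 195, 164 and 592 TPM, and 34.0, 43.8 and 42.9 TPM without Atp6v0d2, so the high TPM sum of replicate 3 rests on that gene. On TMM-scaled counts, 5 of the 6 markers that passed the filter were highest in replicate 3, against 33.0% of tested genes. The other was highest in replicate 1. Any link of these markers with the level of Tnfrsf11a, which was highest in replicate 1, was not tested.

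Fas, the death receptor for Fas ligand, was at 4.51, 17.2 and 7.29 TPM (mean 9.66 ± 6.67, SD, n = 3) on 72, 336 and 325 counts. Replicate 2 was 4.3-fold above replicate 1 (3.34 to 5.65). Tnfrsf14 (HVEM), which binds LIGHT and the lymphocyte receptors BTLA and CD160, was at 21.6, 97.1 and 42.9 TPM (mean 53.9 ± 38.9, SD, n = 3) on 204, 1076 and 623 counts. Replicate 2 was 4.87-fold above replicate 1 (4.19 to 5.69), a range wider than in 95.0% of tested genes. Without replicate 2, Tnfrsf14 differed 1.78-fold between the other libraries and Fas 2.63-fold.

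Ranked by mean TPM the order was Tnfrsf1b, Tnfrsf1a, Tnfsf12, Tnfrsf14, Ltbr, Tnfrsf11a, Tnf, Fas, Tnfsf14 and Tnfsf13b. It was the same for all 10 genes in the kallisto-format table. Of the 9 pairs of neighbours in the order, 7 had overlapping ranges over the libraries. The pairs that did not overlap were Fas with Tnfsf14, whose means differed 5.97-fold, and Tnfsf14 with Tnfsf13b, 5.12-fold. An exact sign-flip test over 3 libraries cannot give a two-sided p below 0.25, so none was run. Fas, Tnfsf14 and Tnfsf13b held places 8, 9 and 10 in each library, Ltbr place 5 and Tnfsf12 place 3.

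Of the 9 genes that passed the filter on low counts, 5 were over 2-fold apart between the highest and the lowest library, namely Tnf, Tnfrsf1b, Fas, Tnfrsf11a and Tnfrsf14. The same held for 36.9% of the 11886 genes tested. The median fold over the 9 genes was 2.11, against 1.73 over all tested genes. The highest library was replicate 1 for 4 genes (Tnf, Tnfrsf1a, Tnfrsf11a and Ltbr), against 34.7% of tested genes. It was replicate 2 for 4 genes (Tnfsf14, Tnfrsf1b, Fas and Tnfrsf14), against 32.3%, and replicate 3 for Tnfsf12, against 33.0%. Without replicate 1, only Tnfrsf14 stayed over 2-fold apart, and without replicate 2 only Tnf and Fas did. Without replicate 3, Tnfrsf1b, Fas, Tnfrsf11a and Tnfrsf14 did.

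The 15 interferon-stimulated genes, a list chosen with earlier results of these data known, are given beside the receptors that were highest in replicate 2. These receptors were picked for that, so a shared rise in replicate 2 follows from the choice. The median log2 ratio of the list to the other libraries was -1.2, 2.0 and -0.85 in replicates 1, 2 and 3. Bst2, which tethers virus particles, was at 731, 905 and 107 TPM, Ifit3 at 168, 642 and 187 TPM and Usp18, the protease that removes ISG15 and the lowest of the list by mean, at 27.8, 64.2 and 10.2 TPM. The ratio of Tnfrsf14 was -1.56, 1.86 and -0.30, that of Fas -1.75, 1.40 and 0.35 and that of Tnfrsf1b, the least raised in replicate 2, -0.94, 0.68 and 0.26. That of Tnfrsf11a was 1.09, -0.87 and -0.22. The part of the interferon genes in these differences was not tested. A high replicate 2 was not particular to these genes. On TMM-scaled counts it was the highest library for 7 of 10 macrophage markers, against 32.3% of tested genes. The same held for 14 of 22 genes of the TNF receptor complex and its ubiquitin ligases, but for 1 of 10 death-signalling genes. Neutrophil markers also differed, with a summed level of 198, 51.7 and 363 TPM. S100a9 and S100a8 led that list and Ly6g had 0 counts in all libraries. They were lowest in replicate 2, and their part in the results was not tested either.

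**Figure D2:**
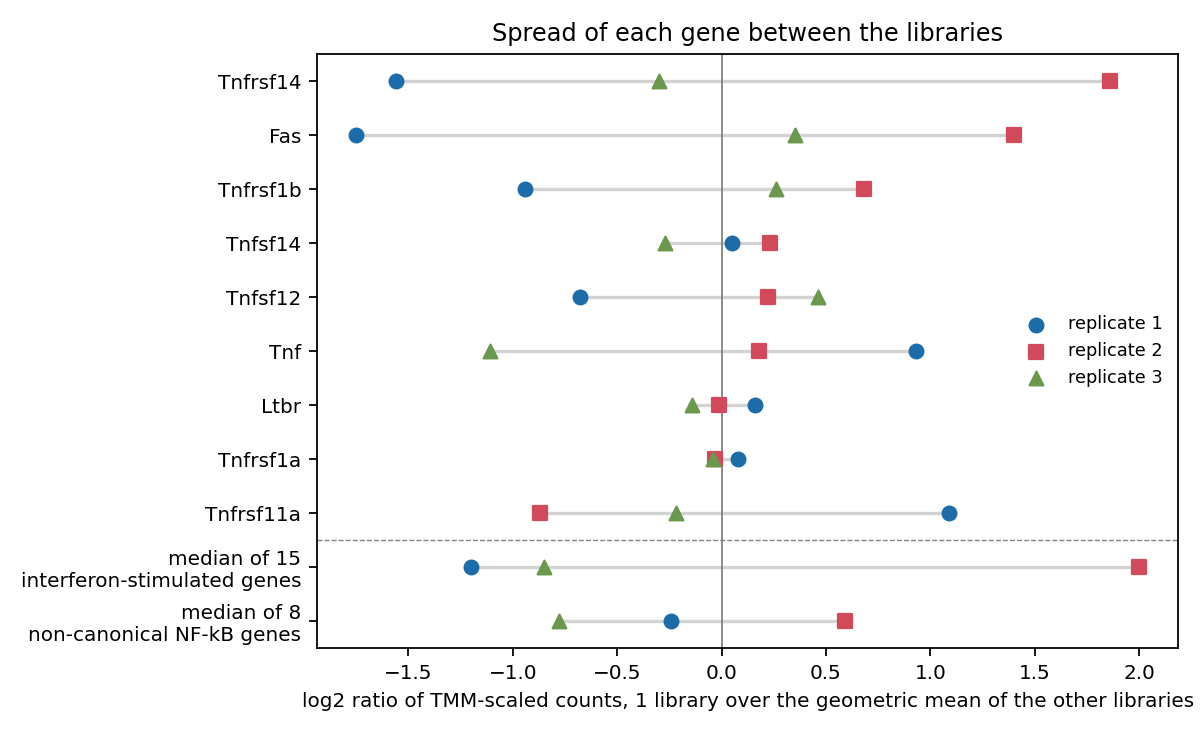
Log2 ratio of TMM-scaled counts of each library to the geometric mean of the others, for the 9 genes that passed the filter and, under the dashed line, the median of 15 interferon-stimulated and 8 non-canonical NF-kB genes. Tnfrsf14, Fas and Tnfrsf1b are high in replicate 2, Tnfrsf11a and Tnf are high in replicate 1, and Tnfrsf1a and Ltbr stay close to 0.

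The transcript tables show which forms of each gene were read. Of the 9 genes with several annotated transcripts, 8 had the same leading transcript in the RSEM-format and kallisto-format tables, against 89.5% of genes with 2 or more transcripts that reached 1 TPM throughout. The exception was Tnfsf13b, with Tnfsf13b-206 and Tnfsf13b-202. It was below 1 TPM in every library, so the genes behind the 89.5% do not include it. All reads of Tnf were placed on Tnf-201 in both tables, and none on Tnf-202, which has 3 exons in place of 4.

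Tnfrsf1a-201 took 98.3%, 99.0% and 80.3% of its gene's TPM in replicates 1, 2 and 3 in the RSEM-format table. The difference lay in Tnfrsf1a-206, an 885-base coding fragment annotated as incomplete at both ends. This fragment was at 0.23, 0.67 and 18.4 TPM in the RSEM-format table and at 0.17, 0.448 and 19.9 TPM in the kallisto-format table. It was thus high in replicate 3 in both tables, at 17.4% and 18.5% of the gene. The whole gene was steady in the RSEM-format table, but in the kallisto-format table it was at 87.3, 86.8 and 107 TPM. There the retained-intron transcript Tnfrsf1a-205 also took its largest share in replicate 3, with 2.4%, 5.79% and 11.2% in replicates 1, 2 and 3, against 1.56%, 0.467% and 2.26% in the RSEM-format table.

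Fas-201, the complete form with 9 exons, took 75.2% ± 12.5 of the gene in the RSEM-format table and 65.4% ± 14.1 in the kallisto-format table (SD, n = 3). Fas-202, with 3 exons and a coding sequence of 189 bases, took 20.7% ± 10.3 and 25.2% ± 7.44 of the TPM, and 6.08% of the counts in the RSEM-format table. Its counts were 7.11, 19.2 and 8.58, so its share is loosely fixed. Tnfrsf11a-201, the complete form, took 80.9% ± 2.65 of its gene, and the retained-intron transcript Tnfrsf11a-203 took 17.5% ± 3.49 in the RSEM-format table and 16.6% ± 3.28 in the kallisto-format table. By counts in the RSEM-format table these shares were 96.4% for Tnfrsf11a-201 and 3.45% for the shorter Tnfrsf11a-203.

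Tnfrsf14 was led by Tnfrsf14-203, a 394-base fragment without an annotated end, with 50.0% ± 15.2 of the TPM but 16.8% of the counts. Because TPM divides by length, a fragment this short weighs more in TPM than in counts. Tnfrsf14-205, the longer coding form, took 45.1% of the counts. Summed over the 2 transcripts with complete coding sequences, Tnfrsf14 was at 10.5, 56.0 and 13.8 TPM, and replicate 2 was 5.33-fold above replicate 1. In counts per kilobase of the longest transcript the gene held place 7 among the 10, against place 4 in TPM. Its place in the order is therefore uncertain, and replicate 2 was its highest library on each of these scales. Tnfrsf1b-201, Tnfsf12-202 and Ltbr-201 took nearly all of their genes, with means of 98.6%, 95.7% and 99.8% in the RSEM-format table.

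**Figure D3:**
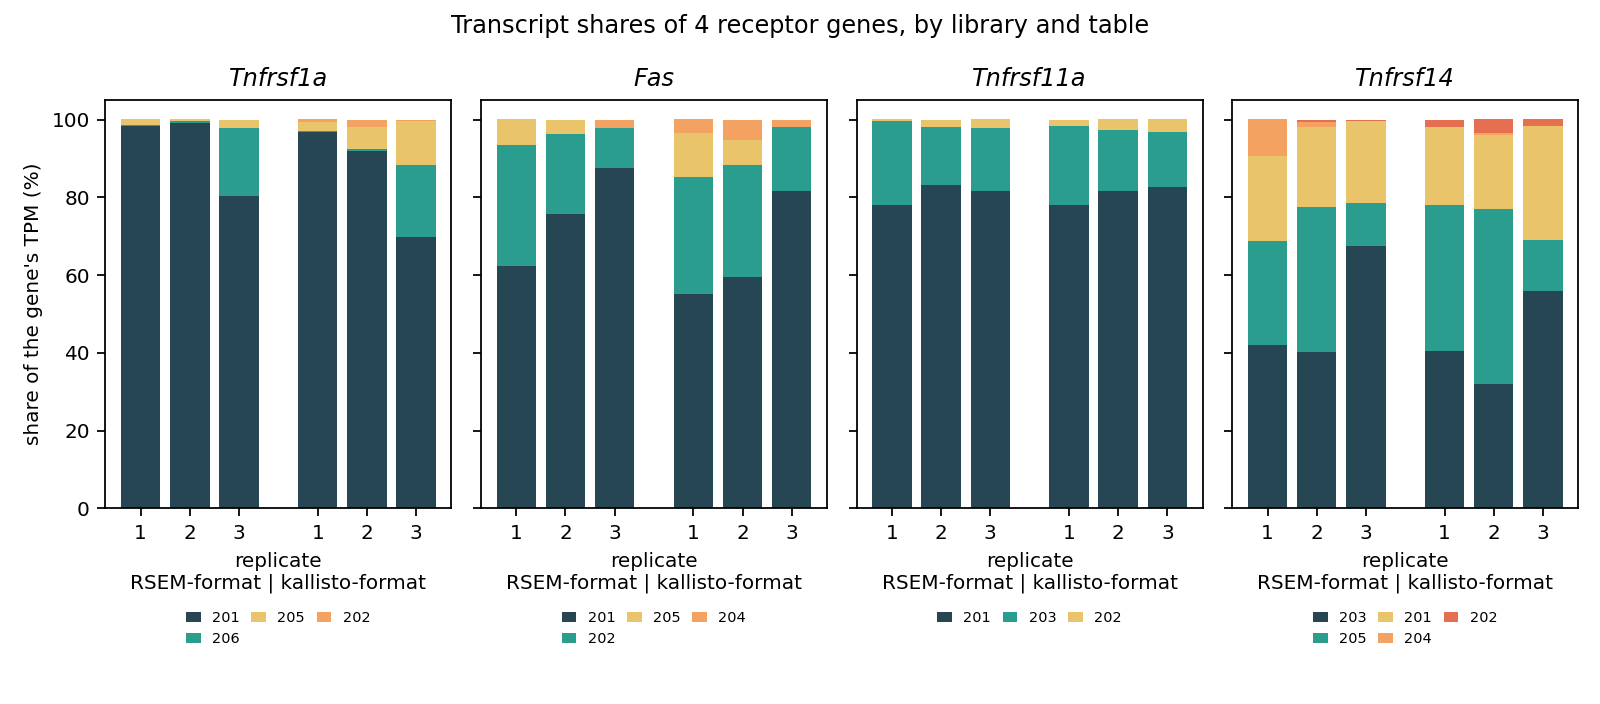
Share of the gene's TPM (%) taken by each transcript in each library, for Tnfrsf1a, Fas, Tnfrsf11a and Tnfrsf14, with the RSEM-format table in the 3 bars on the left of each panel and the kallisto-format table on the right; colours are transcript numbers. Tnfrsf1a-206 appears in replicate 3 in both tables, and Tnfrsf14-203 leads Tnfrsf14 in most bars.

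Within the superfamily, 5 of 18 ligands and 14 of 28 receptors reached 1 TPM in each library, against 44.8% of protein-coding genes. The median of the mean level was 0.355 TPM for ligands and 2.38 TPM for receptors. The 10 genes described here were chosen with earlier results of these data known, so a large share can follow from that choice. Their 4 ligands made up 83.9%, 70.4% and 77.9% of the ligands' summed TPM in replicates 1, 2 and 3. Their 6 receptors made up 74.9%, 84.6% and 79.6% of the receptors' summed TPM. Among the rest, Tnfsf13 led the ligands, followed by Tnfsf9 (4-1BB ligand) at 7.73, 6.4 and 1.76 TPM. Fasl, Cd40lg, Cd70, Eda and Tnfsf11 had 0 counts in every library. The ligand of Fas and the ligand of Tnfrsf11a (RANKL, Tnfsf11) were thus not detected beside their receptors. Tnfsf10 (TRAIL) was at 0.94, 11.8 and 0.92 TPM and highest in replicate 2; it was chosen after its values were seen.

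Lymphotoxin genes, which flank Tnf on chromosome 17 and together encode a ligand of Ltbr, were near 0. Lta was at 0, 0.05 and 0 TPM and Ltb at 0.24, 0.4 and 0.34 TPM. Tnfrsf12a, the receptor of Tnfsf12, was at 9.31, 4.77 and 2.17 TPM, so the ligand was at 7.47, 23.0 and 44.1 times the level of its receptor. For LIGHT the balance lay with the receptors: Tnfrsf14 was at 12.4, 50.6 and 35.7 times the level of Tnfsf14, or 6.04, 29.2 and 11.5 times when only its complete coding transcripts are summed, and Ltbr was at 31.6, 26.7 and 31.7 times. Of the receptors of BAFF and APRIL, Tnfrsf13b (TACI) was at 40.1, 29.9 and 38.3 TPM, the highest receptor outside the 6. Tnfrsf13c and Tnfrsf17 had 0 counts in replicates 1 and 2 and 4 and 2 counts in replicate 3. Tnfrsf21 (DR6) followed at 33.6, 17.7 and 29.6 TPM, Tnfrsf11b, the decoy of RANKL, had 1 count, in replicate 2, and Edar and Tnfrsf19 had none.

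**Figure D4:**
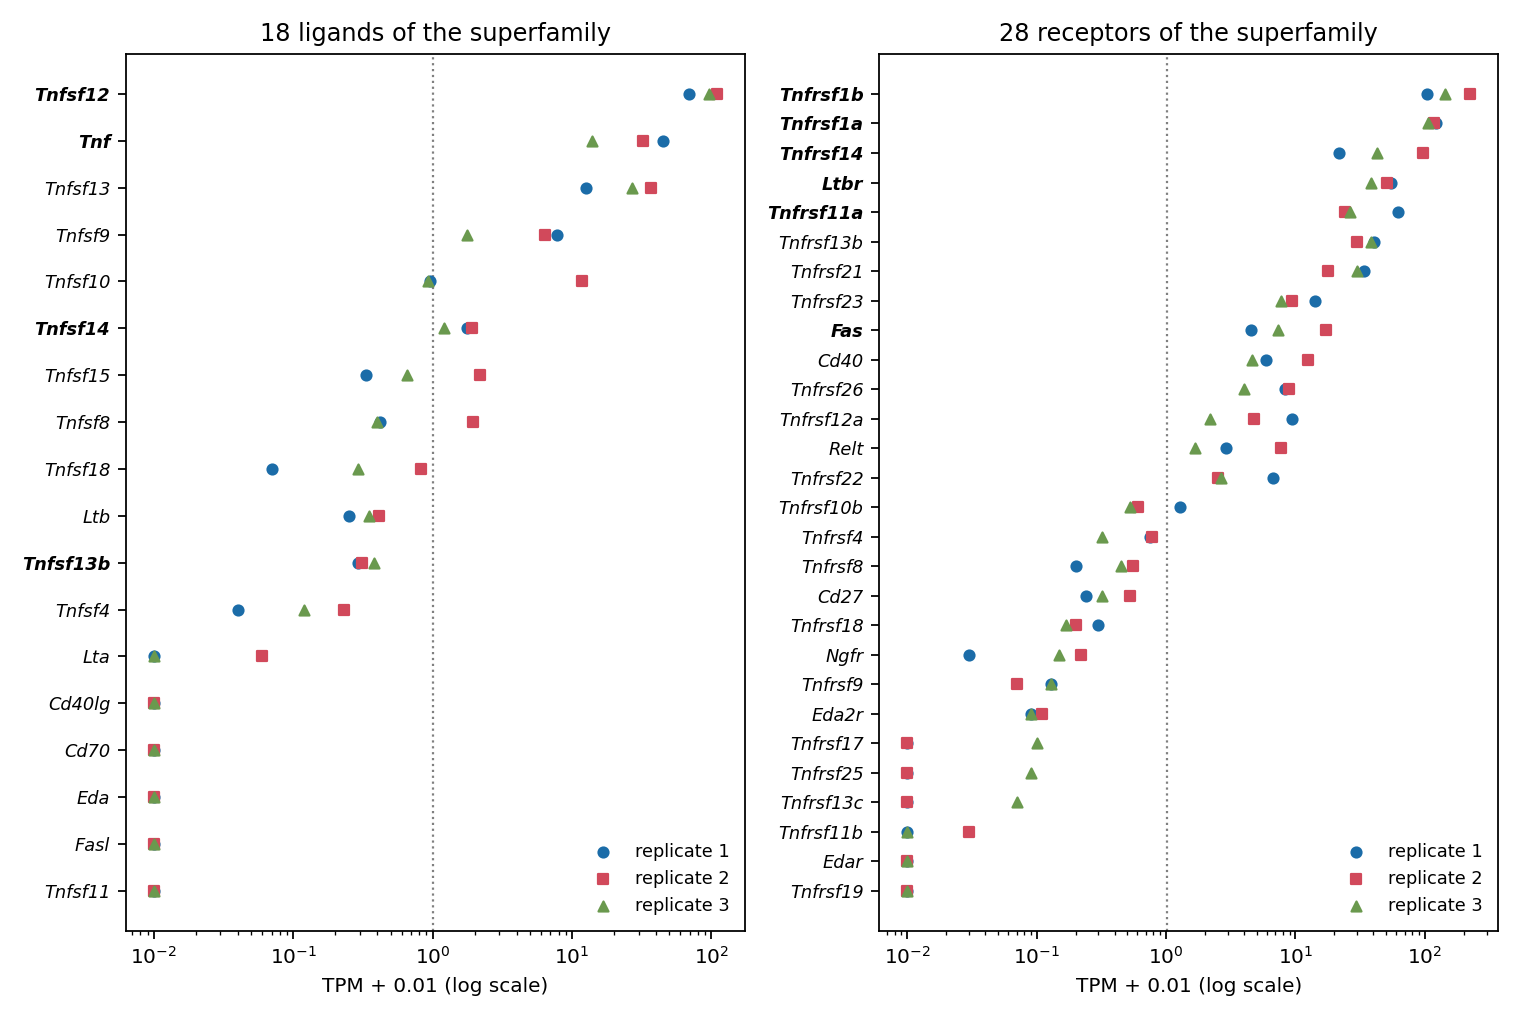
TPM + 0.01 (log scale) of 18 ligands and 28 receptors of the superfamily in each library, ordered by mean, with the 10 genes described here in bold and a dotted line at 1 TPM. Tnfsf12, Tnf and Tnfsf13 lead the ligands, 5 ligands and 2 receptors lie at 0 in every library, and 5 of the 6 receptors described here top the other panel.

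The machinery downstream was detected almost throughout. All 22 genes of the TNF receptor complex and its ubiquitin ligases reached 1 TPM in each library, from Tab2, a subunit of the TAK1 kinase complex, at 73.7 ± 26.8 TPM and the kinase Ripk1 at 59.9 ± 16.1 TPM to Tab3 at 4.08 ± 0.61 TPM. Of these 22 genes, 7 were over 2-fold apart between libraries, against 36.9% of tested genes. The 10 death-signalling genes were all detected too, led by Casp8 at 74.6 ± 6.36 TPM, with the adaptor Fadd lowest at 8.18 ± 1.74 TPM. Of these 10 genes, 1 was over 2-fold apart, against the same 36.9%. All 8 genes of the non-canonical NF-kB branch, into which Ltbr and Tnfrsf11a feed, were detected, and 5 of them were over 2-fold apart. On TMM-scaled counts all 8 were highest in replicate 2, against 32.3% of tested genes, while in TPM Traf3 was highest in replicate 1. Levels were led by Birc3 at 16.3, 55.7 and 26.2 TPM and Chuk at 31.5, 41.3 and 13.9 TPM, and Traf2 was the lowest, at 9.86, 11.4 and 4.33 TPM. Of those 8 genes, 5 are also in the list for the receptor complex.

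Of 13 genes that act in shedding of TNF or on its mRNA, 12 reached 1 TPM in every library. Zfp36l1, a relative of tristetraprolin, led at 87.7 ± 17.7 TPM, followed by Adam17 at 66.2, 100.0 and 61.3 TPM. Timp3, an inhibitor of ADAM17, was lowest, at 0.19, 0.06 and 0.57 TPM. The level of Adam17 was 1.48, 3.11 and 4.41 times that of Tnf in replicates 1, 2 and 3.

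Markers of the lymphoid, dendritic and stromal cells that also carry these ligands and receptors were low. None of 10 T and NK cell markers reached 1 TPM in every library, and their summed level was 0.6, 0.34 and 1.23 TPM, with Lck and Nkg7 highest and Gzma at 0. Of 8 B cell markers only Cd79b reached it, at 2.31 ± 0.776 TPM, against 0.13 ± 0.147 TPM for Cd79a, and Vpreb3 and Igll1 were at 0. None of 7 dendritic cell markers did, with sums of 1.75, 2.67 and 5.78 TPM, Ccr7 and Siglech leading and Xcr1 lowest. Of 8 stromal and endothelial markers only Kdr did, at 3.8, 11.7 and 4.05 TPM, with Cdh5 at 1.14 ± 0.805 TPM and Lepr at 0.

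The level of a gene also depended on the quantifier. Across the 10 genes, the median absolute log2 ratio of kallisto-format to RSEM-format TPM was 0.30, against 0.29 over all detected genes. The median signed ratio over all detected genes was -0.41, -0.39 and -0.06 in replicates 1, 2 and 3, so replicates 1 and 2 read lower in the kallisto-format table over all genes. For Tnfrsf1a, replicate 3 was the highest library in kallisto-format TPM and the lowest in RSEM-format TPM.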

How the data were processed

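The gene table, the RSEM-format and the kallisto-format transcript table of each of 3 libraries were used, on mm10 with GENCODE M21 per the deposited file lists. Which aligner, program versions and strand setting were used is not given in the sources used here. Per the file headers, expected counts need not be whole; they were rounded before scaling. Estimated counts in the kallisto-format tables are as deposited. TPM and FPKM, per the file headers, are scaled by length and library. The deposited percent of a gene per transcript was recomputed from TPM. The deposited credible bounds of TPM, a score here, were not used in the text.

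edgeR 4.0.16 (limma 3.58.1, R 4.3.3) gave filterByExpr and TMM factors, with a prior count of 0.5; DESeq2 1.42.0 size factors were an alternative. The scaling was tested on simulated data. Folds carry exact conditional binomial intervals at 95%, for counting error alone, as reads were not counted as molecules. The highest and lowest libraries were picked from the same counts and the scaling factors taken as known, so these intervals are too narrow to that extent. With 1 group there was no contrast, so values are described beside the same share over all genes. Promoter sequences come from RefSeq (GRCm38.p6) and transcript sequences from GENCODE M21. The genes and lists were chosen with earlier results of these data known. The text names all 10 genes, from each other list the 2 highest and the lowest, and partners of named genes; Zfp36, Scnn1a, Tnfsf10, Tnfsf13os, Traf3 and the neighbours in the closing section were picked with their values in view.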

Additional observations from a re-analysis of the deposited data

How the results depend on the processing

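The count of detected genes, the medians from the kallisto-format table and from posterior means, the number over 2-fold apart under every other scaling and the shared leading transcripts stayed within 1.5 times of, or 1 SD from, the reported values. The median level was 29.0 in FPKM and 18.4 in CPM per kilobase of the longest transcript, the second chosen after seeing the data; these are other units. The number highest in replicate 3 was 0 with library totals and with TPM, since Tnfsf12 was then highest in replicate 2. Leaving out 1 library at a time, 1 to 4 genes were over 2-fold apart and 4 to 5 pairs of neighbours overlapped. For single genes, 4 of 51 mean levels, 10 of 45 folds and 2 of 10 transcript shares moved beyond their spread or interval; under the scalings of counts and RSEM-format TPM tried, the highest library changed for Tnfsf12 among the 9 genes that passed the filter, and in kallisto-format TPM, added after seeing the data, Tnfrsf1a was highest in replicate 3 in place of replicate 1. No paired analysis was possible because there was 1 group. Depth limits Tnfsf13b, with at most 15 counts, and Fas in replicate 1, with 72.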

Other observations

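The nearest protein-coding genes on each side of the 10 genes were read off as well, and those named here were chosen after their values were seen. Tnf, at 30.3 ± 15.6 TPM (SD, n = 3), lies between Ltb at 0.327 ± 0.0808 TPM and Lta at 0.0167 ± 0.0289 TPM, 3061 and 1158 bases away, and beyond these come Lst1 at 364 ± 150.0 TPM and Nfkbil1 at 10.4 ± 4.12 TPM. Tnfrsf1a is 176 bases from Plekhg6, at 0.233 ± 0.185 TPM. Tnfrsf1b lies between Vps13d, at 22.2, 32.0 and 52.4 TPM in replicates 1, 2 and 3, and Tnfrsf8 (CD30), at 0.393 ± 0.184 TPM. Tnfsf14 lies 9793 bases from C3, the central complement protein, at 12.5, 48.8 and 28.2 TPM. Fas is 146006 bases from Ch25h, an oxysterol enzyme, at 2.4, 0.99 and 0.04 TPM.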
